A study of Rattus norvegicus with 10 samples.

Results

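Translation factors and aminoacyl-tRNA synthetases were followed in microglia, the resident macrophages of the brain, with and without interferon gamma (IFN-gamma), a cytokine of activated T cells and natural killer cells. The set was defined by gene name alone. It took each gene whose single symbol in the platform annotation starts with Eif or Eef and a digit (initiation and elongation factors). It also took each gene whose single symbol is a capital letter followed by ars1 (aminoacyl-tRNA synthetases). This gave 30 genes on 47 probe sets, of 4736 genes with a single symbol on the array. Wars1 and Eif5a, the tryptophanyl synthetase gene and a further factor gene, were not analysed here. The cells were cultured from neonatal rat brain, with tissue of a single brain per flask, in medium with 15% fetal calf serum that was renewed on days 7 and 11, and moved to dishes of 100000 cells on day 15. The 5 control cultures (numbered 1, 2, 3, 5 and 6) then received fresh medium. The 3 IFN-gamma cultures (1, 2 and 3) received fresh medium with 100 U/ml IFN-gamma for 16 hours. No strain, sex or genotype is given in the labels. IFN-gamma culture 1 was measured on 3 arrays, which were averaged, so n is the number of cultures.

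Translation starts when eIF2 brings the initiator tRNA to the small ribosomal subunit and the eIF4 factors bring the capped mRNA. eIF2B recharges eIF2 after each round, and stress kinases that phosphorylate eIF2 block that step. Elongation factors then deliver charged tRNAs and move the ribosome along, while synthetases charge each tRNA with its amino acid. In macrophages these steps are a known point of control during the response to infection, and the eIF2 kinase PKR, encoded by Eif2ak2, is a classical interferon-induced gene.

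Promoter sequence was taken from RefSeq (rat assembly GRCr8, 250 bases before to 50 after an annotated start of the gene). It held 29 of the 30 genes, all but Eif4ebp1. Windows of 4 genes are shown: the 3 synthetase genes with a match, of which Kars1 passed the test below and Iars1 and Tars1 did not, and Eif2ak2 as the interferon-linked kinase. Capitals mark a match, on either strand, to a motif of an interferon or amino acid response. The motifs were the STAT-type palindrome TTCNNNGAA, its form with a spacer of 4 bases between TTC and GAA, the interferon-stimulated response element core (GAAA, 2 free bases, GAAA) and the ATF4-type amino acid response core TGATGNAA.
Kars1, chr19:56886034-56886333, minus strand: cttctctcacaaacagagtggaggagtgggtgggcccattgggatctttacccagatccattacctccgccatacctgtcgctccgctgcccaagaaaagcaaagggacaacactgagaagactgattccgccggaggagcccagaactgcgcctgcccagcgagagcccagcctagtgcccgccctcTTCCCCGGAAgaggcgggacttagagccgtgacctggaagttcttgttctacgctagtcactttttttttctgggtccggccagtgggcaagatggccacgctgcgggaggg
Iars1, chr17:15193603-15193902, minus strand: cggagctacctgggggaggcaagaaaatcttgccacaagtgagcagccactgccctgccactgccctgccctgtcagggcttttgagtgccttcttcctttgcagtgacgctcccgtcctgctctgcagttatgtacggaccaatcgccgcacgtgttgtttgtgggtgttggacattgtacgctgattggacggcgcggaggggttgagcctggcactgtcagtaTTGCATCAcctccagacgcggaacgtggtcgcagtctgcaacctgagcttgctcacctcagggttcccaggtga
Tars1, chr2:62114753-62115052, minus strand: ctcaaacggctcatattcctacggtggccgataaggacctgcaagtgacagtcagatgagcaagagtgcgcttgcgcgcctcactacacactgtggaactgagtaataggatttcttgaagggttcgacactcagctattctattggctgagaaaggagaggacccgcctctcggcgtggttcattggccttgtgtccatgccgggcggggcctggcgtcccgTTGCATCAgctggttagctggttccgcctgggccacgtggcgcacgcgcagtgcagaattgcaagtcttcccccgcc
Eif2ak2, chr6:21940904-21941203, plus strand: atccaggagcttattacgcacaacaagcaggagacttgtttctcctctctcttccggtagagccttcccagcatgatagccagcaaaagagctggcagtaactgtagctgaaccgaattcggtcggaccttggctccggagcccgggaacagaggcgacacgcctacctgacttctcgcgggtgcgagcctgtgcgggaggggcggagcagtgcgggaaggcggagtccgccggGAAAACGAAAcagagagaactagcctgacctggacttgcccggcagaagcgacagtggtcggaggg
The Kars1 window held only the form with 4 spacer bases, at position -62 from the start used for the window. This form was found in 7.28% of all 33469 promoters of this length and in 2 of the 29 member promoters, the other being Eif2ak3. The annotated Kars1 gene runs from 56867096 to 56886151, past the start used, so the match lies inside that span. The neighbouring gene Terf2ip begins 59 bases further on, at 56886211, so part of the window lies within Terf2ip. The amino acid response core lay at -24 in Iars1 and -27 in Tars1, read on the opposite strand, and in 3.98% of all promoters. The interferon response core lay at -16 in Eif2ak2, occurred also in Eif2s3, and was present in 3.92% of all promoters. TTCNNNGAA, found in 8.87% of all promoters, occurred among the members in Eif4e. The Vars1 window held no match. The sequences are descriptions of the windows, since binding was not measured.

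Each level below is a quantile-normalised log2(signal + 16) value, in which a signal of 16 gives 5 and a signal of 0 gives 4 before normalisation; normalisation then moves the values differently on each array. Fold changes are on that scale, so those of dim genes are understated. The deposited median signal ran from 7.4 (control culture 3) to 23.7 (array 1b) over the 10 arrays, and on control culture 3 the fewest member probe sets exceeded a signal of 16 (23 of 47, against 28 to 40 on the other arrays). The labelled treatment left its mark in every IFN-gamma culture: the interferon response gene Irf1 stood at 5.74 ± 0.21 (SD, n = 5) without and 9.07 ± 0.124 (SD, n = 3) with IFN-gamma. Of 9 microglial markers listed, 6 were measured. Aif1 and C1qb were well expressed in the controls, at 7.81 ± 0.529 and 8.77 ± 0.222 (SD, n = 5). Ptprc and Cx3cr1 stood at 5.60 and 5.19, while Csf1r and Itgam were dim, at 4.73 and 4.98. The microglial list had a mean level of 5.94 to 6.33 in the controls and 6.35 to 6.79 with IFN-gamma (exact permutation p = 0.0179, two-sided, the smallest that 5 against 3 cultures allow), and 1 of the 6, C1qb, rose by limma (adjusted p = 0.0239). The list did not move evenly. The log2 fold change was 1.14 for C1qb, 0.79 for Itgam, 0.42 for Aif1, 0.25 for Ptprc, 0.15 for Csf1r and -0.29 for Cx3cr1. The 5 fibroblast markers had a mean level of 5.52 to 5.77 in the controls and 5.14 to 5.36 with IFN-gamma (exact permutation p = 0.0179, two-sided), though 0 of the 5 passed by limma at an adjusted p under 0.05 and 3 were lower at an unadjusted p under 0.05. The astrocyte, oligodendrocyte, neuron and endothelial lists gave exact permutation p = 0.411, 0.589, 0.607 and 0.75 (two-sided). In these bulk samples fewer cells of a type and less RNA per cell cannot be told apart.

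IFN-gamma raised 1 member, the lysyl-tRNA synthetase gene Kars1, and lowered 0 of the 30 by limma at an adjusted p under 0.05. Over all genes, 1.58% were called by the same rule, 0.887% higher and 0.697% lower. A single call in 30 (3.33%) is therefore a result about Kars1 and not about the set. At an unadjusted p under 0.05, 4 members were higher (Kars1, Eif3d, Eif4h and Eif2s1) and 1 was lower (Eef1g), which is 13.3% and 3.33% against a background of 5.85% and 5.26%. The IFN-gamma cultures lay entirely above the controls in 2 members (Kars1 and Eif4h) and entirely below in 1 (Eef1a1), 6.67% and 3.33% against 4.16% and 3.65% of all genes. The median log2 fold change of the members was 0.09, beside -0.02 over all probe sets. For the other 29 members the log2 fold change ran from -0.52 to 1.002 and the lowest adjusted p was 0.238. The median half-width of their 95% intervals, which are not adjusted for the number of probe sets, was 0.64 on the log2 scale. Changes smaller than that could not be resolved for a typical member. Larger ones could also go uncalled by limma, such as Eif3d at 1.002 (adjusted p = 0.439) and Eif4h at 0.88 (adjusted p = 0.238).

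**Figure D1:**
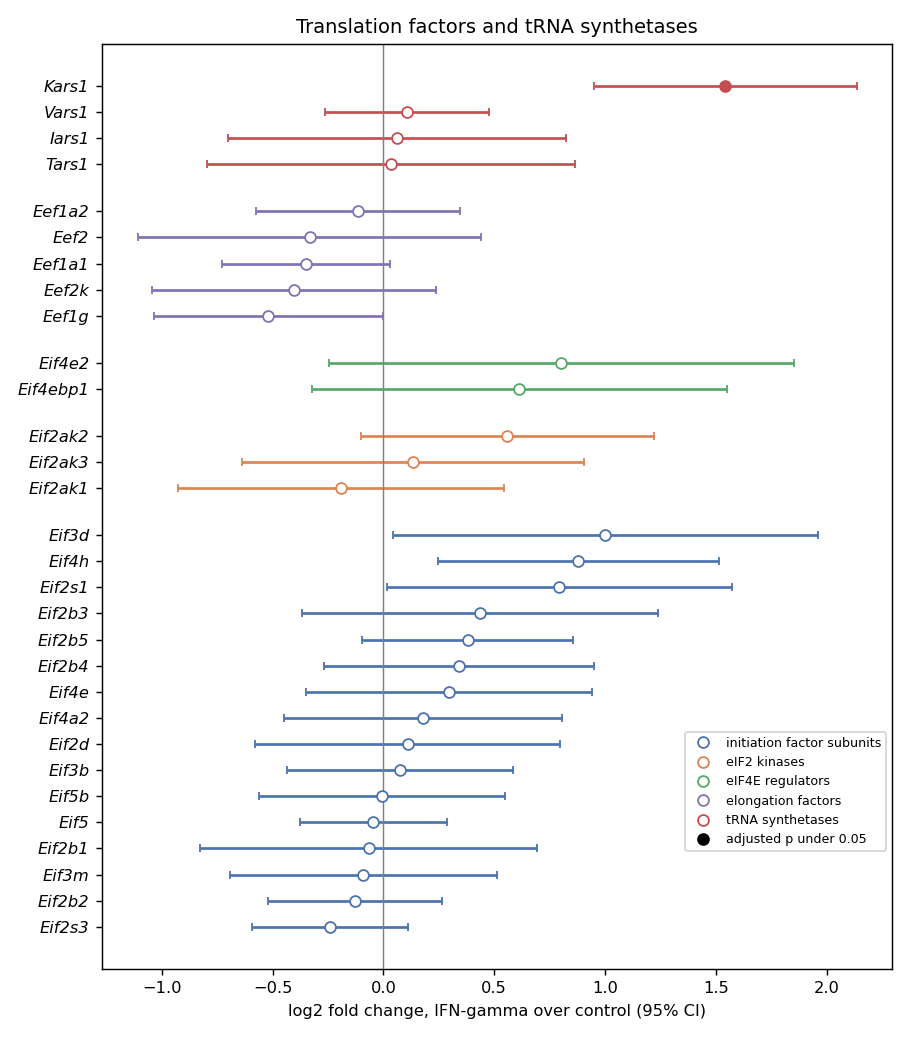
Log2 fold change of the 30 genes, IFN-gamma over control, with 95% confidence intervals (5 control and 3 IFN-gamma cultures), coloured by role. Kars1, at 1.54, carries the only filled point (adjusted p under 0.05). The points of the elongation factor group, which includes the kinase gene Eef2k, all lie to the left of 0 under this scaling.

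Kars1 encodes the enzyme that charges tRNA with lysine, and its product also sits in the multi-synthetase complex. It rose 2.91-fold with IFN-gamma (log2 fold change 1.54 ± 0.263 SE, adjusted p = 0.021; 95% interval of the fold 1.93 to 4.39). Its level was 6.73, 5.70, 5.78, 6.44 and 6.18 in control cultures 1, 2, 3, 5 and 6 and 7.87, 7.84 and 7.42 in IFN-gamma cultures 1, 2 and 3. The lowest IFN-gamma culture lay above the highest control. The 3 technical arrays of IFN-gamma culture 1 gave 8.03, 7.68 and 7.89, an SD of 0.177, smaller than the SD of 0.437 among the controls. The deposited signals separated as well: they were 131, 25.4, 18.3, 79.8 and 69.5 on the control arrays and 178, 411, 134, 283 and 254 on the IFN-gamma arrays 1a, 1b, 1c, 2 and 3. Controls 2 and 3, with the lowest Kars1 signals, were also the arrays with the lowest median signal among the controls (11.7 and 7.4), and the margin between the highest control and the lowest IFN-gamma array was small on the deposited scale.

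The direction of Kars1 held in all 19 other settings, with log2 fold changes from 1.11 to 1.92, but its call was lost in 7 of them. The adjusted p was 0.122, 0.136 and 0.066 when IFN-gamma culture 1, 2 and 3 was omitted, and 0.057 when control culture 6 was. It was 0.225 with no scaling between arrays and 0.124 with a pseudocount of 1. With the culture number as a replicate block the log2 fold change was 1.64 (adjusted p = 0.157). Control cultures 5 and 6 share no number with an IFN-gamma culture, so they add nothing to the difference in that fit. Without control culture 3, the dimmest array, the log2 fold change was 1.45 (adjusted p = 0.0365). Kars1 was measured by 1 probe set, so no second probe set bears on it. The microglial and fibroblast marker levels given above moved between the same groups, and their part in the Kars1 difference was not tested.

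**Figure D2:**
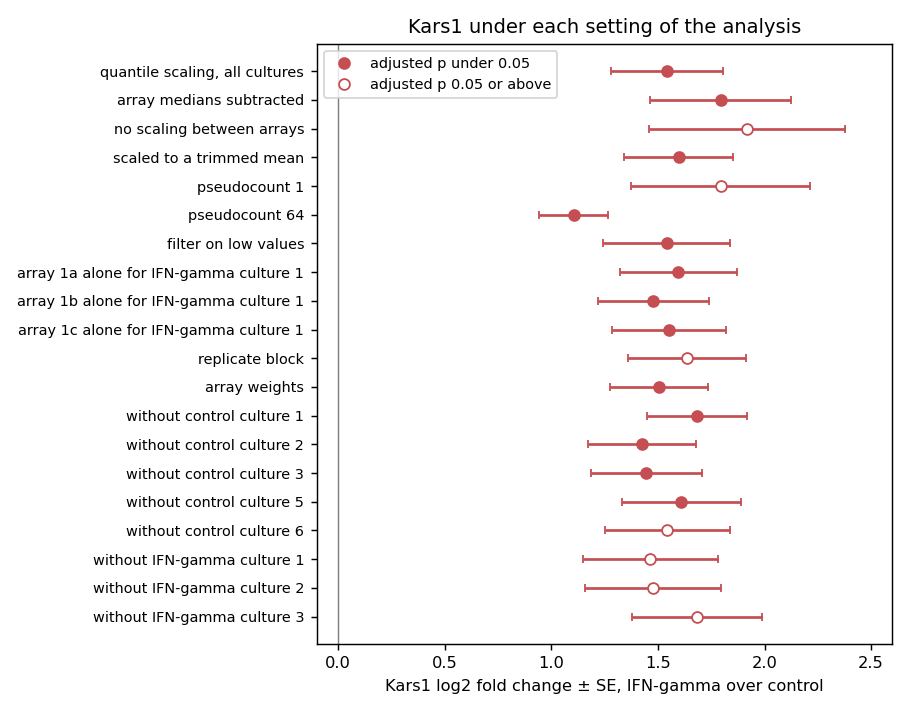
Log2 fold change of Kars1 (± SE) under quantile scaling of all cultures and under each of 19 other settings, filled where the adjusted p was under 0.05. All estimates lie between 1.11 and 1.92, and 7 points are open.

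Of the other 3 synthetase genes 0 passed by limma, and 0 had an unadjusted p under 0.05. Iars1 (isoleucine) lay at 4.93 ± 0.578 (SD, n = 5) without and 4.99 ± 0.412 (SD, n = 3) with IFN-gamma, with a log2 fold change of 0.06 (95% interval -0.70 to 0.82), whose sign changed in 6 of 18 other settings. Tars1 (threonine) had a log2 fold change of 0.04 (95% interval -0.79 to 0.86). Its IFN-gamma cultures were spread widely, at 6.59, 7.01 and 5.31, around controls between 5.82 and 6.71. Vars1 (valine) lay near the floor, at 4.26 ± 0.138 (SD, n = 5) without and 4.37 ± 0.192 (SD, n = 3) with IFN-gamma (95% interval -0.26 to 0.47). For Iars1, Tars1 and Vars1 the interval ended below the 1.54 of Kars1, at 0.82, 0.86 and 0.47. The lower bound for Kars1 was 0.95, and the difference between genes was not itself tested. Iars1 and Vars1 were dim, so their fold changes are understated on this scale. The SE was 0.34 for Iars1 and 0.16 for Vars1. With a pseudocount of 1, Iars1 had 0.20 ± 0.72 SE, Vars1 0.38 ± 0.49 SE and Kars1 1.79 ± 0.42 SE. The bounds of Iars1 and Vars1 therefore depend on the pseudocount, and a larger rise in these genes is not excluded.

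The eIF2 pathway, which supplies the initiator tRNA, held 1 of the larger differences. Eif2s1, which encodes the alpha subunit that the stress kinases phosphorylate, had a level of 6.46, 6.14, 4.93, 5.69 and 5.19 in control cultures 1, 2, 3, 5 and 6 and 6.28, 6.76 and 6.38 in IFN-gamma cultures 1, 2 and 3. IFN-gamma cultures were high and alike, but control culture 1 reached into their range, and the gene did not pass (log2 fold change 0.79 ± 0.346 SE, adjusted p = 0.46). Eif2s3, which encodes the gamma subunit that binds the initiator tRNA, had a difference in the other direction (log2 fold change -0.24 ± 0.156 SE, adjusted p = 0.704). The sign of Eif2s3 was negative under quantile scaling, whereas with no scaling all 16 initiation factor genes were positive. Eif5, whose product triggers GTP hydrolysis on eIF2, lay at 5.84 ± 0.116 (SD, n = 5) without and 5.80 ± 0.0545 (SD, n = 3) with IFN-gamma (95% interval -0.38 to 0.29). Eif5b, which joins the ribosomal subunits, had -0.01 (95% interval -0.56 to 0.55) and Eif2d, an alternative tRNA delivery factor, 0.11 (95% interval -0.58 to 0.80).

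All 5 genes of eIF2B, the exchange factor that recharges eIF2, were measured and by their brightest probe sets 0 passed by limma (0 also at an unadjusted p under 0.05). Eif2b5, the catalytic epsilon subunit gene, had 0.38 (adjusted p = 0.616) from a control level of 4.35, and its partner Eif2b3 had 0.43 (adjusted p = 0.802). The dimmer probe sets of Eif2b3 had 0.75 (adjusted p = 0.329 by limma, unadjusted p = 0.0208) and 0.017 (adjusted p = 0.995). Eif2b4 had 0.34 (adjusted p = 0.79), Eif2b1 -0.07 (adjusted p = 0.985) and Eif2b2 -0.13 (adjusted p = 0.901). Eif2b2 lay at 6.94 ± 0.216 (SD, n = 5) without and 6.82 ± 0.0939 (SD, n = 3) with IFN-gamma, and its 95% interval, -0.52 to 0.26, was the narrowest of the 5, although its technical arrays of culture 1 ran from 6.21 to 7.54.

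Among the genes that bring mRNA to the ribosome, Eif3d and Eif4h had the largest values. Eif3d, a subunit gene of the eIF3 scaffold whose product can itself bind the mRNA cap, had a level of 6.97, 4.83, 6.51, 5.93 and 6.55 in control cultures 1, 2, 3, 5 and 6 and 6.95, 7.36 and 7.17 in IFN-gamma cultures 1, 2 and 3. The IFN-gamma cultures sat together near the top of the control range and overlapped it by control culture 1. The log2 fold change was 1.002 ± 0.426 SE (adjusted p = 0.439) and fell to 0.67 without control culture 2, where Eif3d was lowest. The other eIF3 genes, Eif3b and Eif3m, had 0.07 (95% interval -0.43 to 0.58) and -0.09 (95% interval -0.69 to 0.51).

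Eif4h encodes a partner that stimulates the eIF4A helicase. Its level was 5.65, 5.56, 4.59, 5.14 and 5.56 in control cultures 1, 2, 3, 5 and 6 and 5.93, 6.01 and 6.61 in IFN-gamma cultures 1, 2 and 3. All IFN-gamma cultures lay above all controls, and Eif4h did not pass (log2 fold change 0.88 ± 0.282 SE, adjusted p = 0.238). The lowest control was culture 3, the dimmest array, which was the lowest control in 10 of the 30 members and the highest in another 10. A second probe set separated the groups likewise, with 0.83 (adjusted p = 0.338), and the third had 0.30 (adjusted p = 0.891). The 3 technical arrays of culture 1 varied by an SD of 0.758 for Eif4h, so this culture's value is less certain than for Kars1. The helicase gene Eif4a2 had 0.18 (95% interval -0.45 to 0.80), and Eif4e, whose product binds the mRNA cap, had 0.30 (adjusted p = 0.846) at a control level of 5.07. Eif4e was 0.089 without control culture 2 and 0.0044 with array 1c alone for IFN-gamma culture 1.

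The genes of 2 repressors of cap-dependent translation, Eif4ebp1 and Eif4e2, both had higher means with IFN-gamma. Neither passed by limma (0 at an unadjusted p under 0.05 too, by their brightest probe sets). Eif4ebp1 encodes 4E-BP1, which sequesters eIF4E until mTOR phosphorylates it. By its brightest probe set the level was 7.14, 6.66, 5.20, 6.94 and 7.14 in control cultures 1, 2, 3, 5 and 6 and 7.28, 7.28 and 7.13 in IFN-gamma cultures 1, 2 and 3. Control culture 3 stood far below the others, and control cultures 1 and 6 reached the range of the IFN-gamma cultures. The log2 fold change of 0.61 (adjusted p = 0.728) became 0.26 (adjusted p = 0.697) without control culture 3. The other 2 probe sets placed every IFN-gamma culture above every control, with 1.03 (adjusted p = 0.318) and 0.73 (adjusted p = 0.201). Their unadjusted p by limma was 0.0191 and 0.00841. Eif4e2, which encodes a cap-binding homologue of eIF4E that represses translation, had a level of 7.15, 7.01, 4.83, 6.52 and 6.42 in control cultures 1, 2, 3, 5 and 6 and 7.39, 7.09 and 7.08 in IFN-gamma cultures 1, 2 and 3. Here too control culture 3 was low, and the log2 fold change of 0.80 (adjusted p = 0.643) became 0.41 (adjusted p = 0.582) without it.

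**Figure D3:**
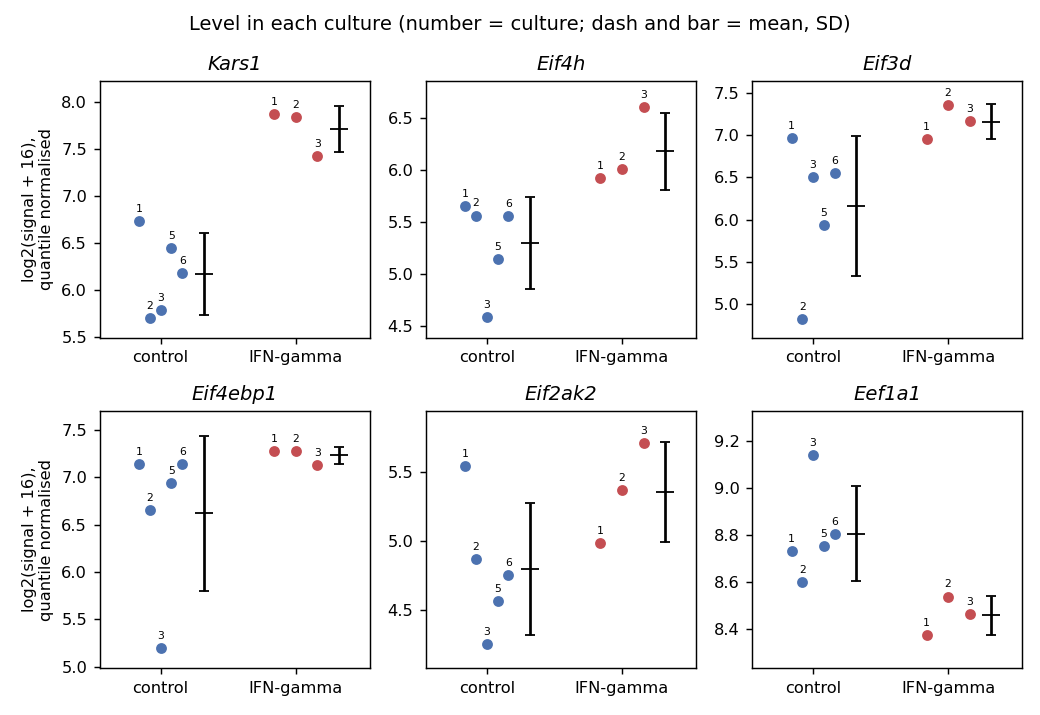
Quantile-normalised log2(signal + 16) level of 6 genes in each of the 5 control and 3 IFN-gamma cultures (numbers name cultures), with mean and SD. Kars1 and Eif4h separate upward and Eef1a1 downward, while Eif3d, Eif4ebp1 and Eif2ak2 overlap, with control culture 3 lowest for Eif4h, Eif4ebp1 and Eif2ak2 and highest for Eef1a1.

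Of the 3 eIF2 kinase genes, 0 passed by limma (0 at an unadjusted p under 0.05). Eif2ak2, which encodes the double-stranded RNA sensor PKR, had a level of 5.54, 4.86, 4.25, 4.56 and 4.75 in control cultures 1, 2, 3, 5 and 6 and 4.98, 5.36 and 5.71 in IFN-gamma cultures 1, 2 and 3. All IFN-gamma cultures lay above control cultures 2, 3, 5 and 6 and overlapped control culture 1, and Eif2ak2 did not pass (log2 fold change 0.56 ± 0.293 SE, adjusted p = 0.575; 95% interval -0.10 to 1.22). Of these 8 levels, 5 were under 5, which is dim. The 3 technical arrays 1a, 1b and 1c of IFN-gamma culture 1 gave 5.54, 5.28 and 4.14 for Eif2ak2 (SD 0.746). Array 1c lay below every control. The log2 fold change was 0.74, 0.66 and 0.28 with array 1a, 1b or 1c alone for that culture. A second, dimmer probe set of Eif2ak2 had 0.14 (adjusted p = 0.884). Eif2ak3, which encodes the endoplasmic reticulum stress kinase PERK, had probe sets of opposite sign: 0.13 (adjusted p = 0.962) and -0.69 (adjusted p = 0.555). Eif2ak1, the heme-regulated kinase gene, had -0.19 (adjusted p = 0.934), with IFN-gamma cultures scattered at 5.40, 4.12 and 4.60.

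The elongation factor group held 4 factor genes and the kinase gene Eef2k. All 5 had negative log2 fold changes by their brightest probe set under quantile scaling, with a median of -0.35 (-0.34 over the 4 factor genes). However, Eef1a1 and Eef2 turned positive with array medians subtracted or with no scaling, and Eef2 also with a trimmed mean. The median of the 5 was -0.18 with array medians subtracted, -0.20 with a trimmed mean, -0.059 with no scaling and -0.11 with the mean of each gene's probe sets. By these probe sets 0 passed by limma, and 1 was lower at an unadjusted p under 0.05. Eef1a1, which encodes the factor that delivers charged tRNAs, had a level of 8.73, 8.60, 9.14, 8.75 and 8.81 in control cultures 1, 2, 3, 5 and 6 and 8.37, 8.54 and 8.46 in IFN-gamma cultures 1, 2 and 3. All IFN-gamma cultures lay below all controls, by a small margin (log2 fold change -0.35 ± 0.169 SE, adjusted p = 0.524). That separation was absent under the same 2 scalings and with a trimmed mean, and the second Eef1a1 probe set, at -0.39 (adjusted p = 0.562), overlapped. Eef1a1 had a log2 fold change of 0.25 with array medians subtracted and 0.37 with no scaling.

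Eef1g, a subunit gene of the exchange factor that recharges eEF1A, had a level of 7.39, 7.44, 6.96, 7.10 and 7.78 in control cultures 1, 2, 3, 5 and 6 and 6.86, 7.10 and 6.49 in IFN-gamma cultures 1, 2 and 3. IFN-gamma culture 2 overlapped control culture 3 (log2 fold change -0.52 ± 0.23 SE, adjusted p = 0.47). It was negative in all 19 other settings, from -0.66 to -0.10. Eef1a2, the form known from neurons and muscle, lay near the floor at 4.46 ± 0.316 (SD, n = 5) without and 4.35 ± 0.0639 (SD, n = 3) with IFN-gamma. Eef2, whose product moves the ribosome by a codon, was measured by 4 probe sets that differed in sign. The brighter pair had -0.33 (adjusted p = 0.851) and -0.48 (adjusted p = 0.201), the second with every IFN-gamma culture below every control, and the first was -0.088 without control culture 3. The dimmer pair, designed on the same expressed sequence, had 0.18 (adjusted p = 0.846) and 0.49 (adjusted p = 0.729). Eef2k encodes the kinase that inhibits eEF2. Its brighter probe set had -0.40 (adjusted p = 0.742), whereas the dimmer one had 0.82 (adjusted p = 0.117) with every IFN-gamma culture above every control, so the direction of Eef2 and Eef2k is not settled by these probe sets.

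Of the 30 genes 12 were measured by several probe sets, and in 9 of these the probe sets shared their sign. The exceptions were Eef2, Eef2k and Eif2ak3. Over all 47 probe sets 1 was higher and 0 lower by limma at an adjusted p under 0.05, against 0.927% and 0.606% of all probe sets, or 1.53% in either direction. At an unadjusted p under 0.05, 9 were higher (19.1%) and 2 lower (4.26%), against 5.74% and 4.76% of all probe sets. Eif4h and Eif4ebp1 each gave more than 1 of the 9, so the 9 are not independent of each other. IFN-gamma cultures lay entirely above the controls in 6 (12.8%, beside 4.28% of all probe sets) and entirely below in 2 (4.26%, beside 3.4%). The 6 came from 4 genes (Kars1, Eif4h, Eif4ebp1 and Eef2k), so they are not independent of each other.

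**Figure D4:**
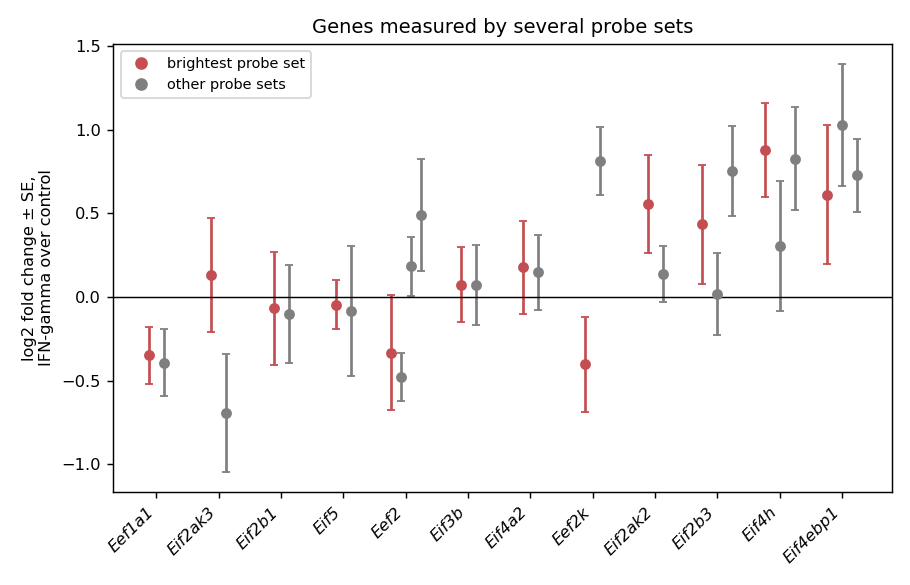
Log2 fold change (± SE, IFN-gamma over control) of every probe set of the 12 genes with several, the brightest in red. All probe sets of Eif4h and Eif4ebp1 lie above 0, and those of Eef2, Eef2k and Eif2ak3 fall on either side.

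Genes that act on translation from outside the set gave 0 calls in 3 lists. Of 18 listed kinases and partners of the mTOR and MNK routes, which set the activity of eIF4E and its binding protein, 9 were measured and 0 passed by limma (0 higher and 2 lower at an unadjusted p under 0.05, beside 5.85% and 5.26% of all genes). The smallest adjusted p belonged to the mTOR complex gene Rictor at -0.64 (adjusted p = 0.197) and the mTOR inhibitor gene Tsc2 at -0.65 (adjusted p = 0.33). The IFN-gamma cultures lay entirely below the controls in 1 of the 9, Rictor, and entirely above in 0, beside 3.65% and 4.16% of all genes. Mtor itself had 0.53 (adjusted p = 0.699) and Rps6kb1, the S6 kinase gene, 0.36 (adjusted p = 0.829). The median of the list was 0.01.

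Of 22 listed genes of the integrated stress response, the programme downstream of eIF2 phosphorylation, 14 were measured. Atf4, the factor that names the amino acid response core above, was not among them, nor were Chac1, Sesn2 and Slc7a11. Of the 14, 0 passed by limma (3 higher and 0 lower at an unadjusted p under 0.05), with a median of 0.05. These counts compare with 5.85% and 5.26% of all genes. The 3 were Cebpb, a transcription factor gene, at 1.09 (adjusted p = 0.0501), the amino acid transporter gene Slc7a5 at 0.84 (adjusted p = 0.131) and the asparagine synthetase gene Asns at 0.86 (adjusted p = 0.229). By brightest probe set the IFN-gamma cultures lay entirely above the controls in 2 of the 14, Cebpb and Slc7a5, and entirely below in 0. Over all genes these shares were 4.16% and 3.65%. Cebpb passed in 8 of 19 other settings, and its second probe set had 0.05 (adjusted p = 0.992). Psat1, of serine synthesis, was the next by its brightest probe set at 0.41 (adjusted p = 0.809), which was 0.20 without control culture 2, and its other 3 probe sets had -0.098, -0.13 and 0.00092. Dimmer probe sets of Phgdh, also of serine synthesis, had 0.80 (adjusted p = 0.144 by limma, unadjusted p = 0.00421), with every IFN-gamma culture above every control, and 0.64 (adjusted p = 0.469), whereas its brightest had -0.05 (adjusted p = 0.968). A dimmer probe set of the amino acid transporter gene Slc7a1 had 0.70 (adjusted p = 0.253 by limma, unadjusted p = 0.0129), beside 0.27 and -0.12 for its others. Ddit3 and Atf3, stress-induced transcription factor genes, had -0.06 (adjusted p = 0.971) and 0.04 (adjusted p = 0.986).

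Of 44 other translation genes listed, 7 were measured and 0 passed by limma (0 at an unadjusted p under 0.05), with a median of 0.09. Aimp2, a scaffold gene of the multi-synthetase complex in which Kars1 protein sits, had 0.71 (adjusted p = 0.576). Farsa, a phenylalanyl synthetase subunit gene, had 0.36 (adjusted p = 0.636), the poly(A)-binding protein gene Pabpc4 -0.40 (adjusted p = 0.846) and the mitochondrial synthetase gene Cars2 -0.26 (adjusted p = 0.866). Pabpc4 was -0.089 without control culture 2, and Cars2 ran from -0.52 to -0.10 when cultures were omitted in turn.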

How the data were processed

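Total RNA was hybridised to 10 Affymetrix rat arrays. For every probe set the authors deposited a linear intensity from each array. MAS5 and GCRMA appear in the submitters' processing notes, without saying which produced these intensities. They were converted to log2(signal + 16), quantile normalised over the 10 arrays, and averaged over the 3 technical arrays, and 59 control probe sets were left out. The remaining 8740 entered a limma fit (version 3.58.1, R 4.3.3; lmFit and eBayes with a term for group, two-sided, Benjamini-Hochberg over all 8740, threshold 0.05). A gene was represented by its probe set with the highest mean over the cultures. Gene symbols came from the platform annotation; 29 of 30 members matched a RefSeq entry (assembly GRCr8) by Entrez identifier, all but Eif5, and 0 symbols were changed. Named genes were members past the threshold or without overlap between groups, the 3 largest changes per role group, members whose probe sets differ in sign, a fixed set and up to 4 genes with the smallest adjusted p from each related list; the remaining members are given so that each is accounted for. The members and lists were chosen with earlier results of these data known. Single values per culture were compared with exact permutation tests. Alternatives covered the scaling, the pseudocount, a filter on low values, the technical arrays, the replicate block, array weights, the choice of probe set and the omission of each culture. The limma step was tested on simulated data. The labels call the controls independent cultures and do not say that a culture number is shared between groups. No depth applies to arrays, and their number limits the precision.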

Additional observations from a re-analysis of the deposited data

Results flagged for a closer look

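Control values were examined for a lone outlying culture in each of the 30 members, by the gap to the nearest other culture as a share of the range (above 0.71, which about 5% of groups exceed by chance), and 2 members met this. By its brightest probe set Eif4ebp1 stood at 5.20 in control culture 3, against 6.66 to 7.14 in the other controls. Control culture 3 was also the lowest control by a second probe set, at 4.24 against 4.98 to 5.85. By the third it was not, at 5.42 against 4.64 to 5.55. Eef1a2 stood at 5.01 in control culture 2, against 4.23 to 4.38 in the others, all near the floor of the scale.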

How the results depend on the processing

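Kars1 was higher in all 19 other settings in which it was fitted. Its count as the single member above the threshold became 0 with no scaling between arrays (log2 fold change 1.92, adjusted p = 0.225), with a pseudocount of 1 (1.79, adjusted p = 0.124), with the replicate block (1.64, adjusted p = 0.157), and without control culture 6 or any IFN-gamma culture, so the count ran from 0 to 1 when cultures were omitted in turn. The lower count was 0 throughout. The median over the members was 0.23 with array medians subtracted and 0.35 with no scaling, but 0.015 with the replicate block, 0.034 with a trimmed mean and 0.037 with a pseudocount of 64, against 0.09, and 0.05 to 0.15 when cultures were omitted in turn; over all probe sets the median was 0.10 with no scaling against -0.02. Members with IFN-gamma cultures entirely above the controls numbered 4 with array 1b alone (4.92% of all genes), 1 with array 1c alone (3.84%) and 2 to 6 when cultures were omitted (5.03% to 7.5%; the 6 came without control culture 1). Those entirely below numbered 0 with array medians, no scaling or a trimmed mean (2.26%, 0.676% and 4.14% of all genes), and 1 to 2 when cultures were omitted (4.43% to 6.74%). Over all probe sets 38 were higher and 1 lower with no scaling, 42 and 25 with a pseudocount of 1, 17 and 5 with the replicate block, and 100 and 27 with array medians, against 81 and 53. When cultures were omitted in turn these ran from 47 to 106 higher and 21 to 50 lower.

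Of 28 named genes, 14 moved by over 1.5 times or changed sign when 1 culture was omitted, none of which had passed. Signs changed in some settings among genes that did not pass. Eef1a1 was 0.25 with array medians and 0.37 with no scaling, and Eef2 was 0.33, 0.46 and, with a trimmed mean, 0.016. Iars1 was -0.041 with a trimmed mean, -0.052 with array 1c alone and -0.31 with the replicate block, and ran from -0.11 to 0.29 when cultures were omitted. Eif2ak3 was -0.29 with the block and ran from -0.029 to 0.35 when cultures were omitted, and Eif2ak1 from -0.54 to 0.10. The causes were not tested. Cultures with the same number did not deviate together (correlations -0.03, 0.00 and -0.01 for numbers 1, 2 and 3), so the block is not the main fit. Its group difference also leaves out control cultures 5 and 6, so its values differ from the main fit in the controls used as well. Dimness limits what could be seen: 8 of the 30 members had a mean level under 5.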

Other observations

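A pair of probe sets carries the symbols of Eif5 and its pseudogene Eif5-ps1 together and was therefore left out of the members. Their log2 fold changes were 0.08 (adjusted p = 0.981) and 0.15 (adjusted p = 0.962), beside -0.05 and -0.08 for the probe sets that name Eif5 alone.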
